A study of Mus musculus with 3 samples.

Results

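The 3 loci described here, H19, Rasgrf1 and the Dlk1-Meg3 intergenic region (called Meg3 below), are imprinted loci of the mouse known to take their germline DNA methylation from the father. They were chosen by position alone, as every listed region whose start lay in a fixed window of mouse genome build mm9: chromosome 7 from 149.74 to 149.80 Mb for H19, chromosome 9 from 89.75 to 89.83 Mb for Rasgrf1 and chromosome 12 from 110.74 to 110.82 Mb for Meg3. Each locus name below stands for its whole window, and a region in a window need not lie in the imprinting control region itself. The windows held 14 of the 88857 regions in the deposited lists. Of these, 4 came from the control list, 4 from the ZFP57 list and 6 from the KAP1 list.

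The lists come from 3 chromatin immunoprecipitation sequencing (ChIP-seq) libraries of mouse embryonic stem (ES) cells, which are pluripotent cells of the early embryo. The control was an HA-tag immunoprecipitation from ES cells without a transgene (45956 regions). The ZFP57 library used the same HA antibody in ES cells carrying a transgene for HA-tagged ZFP57 (22031 regions), and the KAP1 library used the RBCC antibody against KAP1 in E14 ES cells, a standard mouse line, without a transgene (20870 regions). KAP1 and HA-ZFP57 were therefore mapped in different cultures and with different antibodies, and the labels name the cell line for the KAP1 library only. The control shares its antibody with the ZFP57 library and not with the KAP1 library. No list shows the background of the RBCC antibody, so a KAP1 region off the control is not cleared of that background. Neither the promoter nor the level of the transgene is stated in the labels. Each group holds 1 library, so there is no replicate spread and no test between conditions. The lists give only chromosome, start and end, so neither peak height nor sequencing depth is known, and a locus missing from a list may have lain under a threshold that is not stated. Methylation and parental alleles were not measured in these lists.

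At an imprinting control region, a differentially methylated stretch of DNA, 1 parental copy stays methylated after fertilisation, and this sets which copy of the neighbouring genes is expressed. ZFP57 is a KRAB zinc finger protein that binds a methylated short motif and protects this methylation, and KAP1 (TRIM28) is the corepressor recruited by KRAB zinc finger proteins. Methylation of the H19 control region on the paternal copy blocks the insulator factor CTCF, so that Igf2, a fetal growth factor gene, is expressed from that copy, while H19, a long noncoding RNA, is expressed from the maternal one. The Rasgrf1 control region lies upstream of the gene for a Ras guanine nucleotide exchange factor, and the intergenic region between Dlk1, which encodes a Notch-related ligand, and the long noncoding RNA Meg3 controls a large cluster of noncoding RNAs.

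ZFP57 and KAP1 regions overlapped at H19 and Rasgrf1 but not at Meg3, and none of the 10 ZFP57 and KAP1 regions at the 3 loci overlapped a control region. H19 held 2 overlapping sites with 2 further KAP1 regions beside them, Rasgrf1 held 1 site, and at Meg3 the single KAP1 region and the single ZFP57 region lay 46.0 kb apart. Of the 4 ZFP57 regions, 3 overlapped a KAP1 region, against 44.7% of the whole ZFP57 list, and 0 overlapped a control region, against 49.0% of the list. These 3 thus overlapped KAP1 and not the control, which was true of 9.80% of the list. Among the 6 KAP1 regions, 3 overlapped a ZFP57 region (47.5% of the whole KAP1 list) and 0 overlapped a control region (47.1%). The overlap of KAP1 regions with ZFP57 was thus near the level of the list. With 4 and 6 regions, the counts are a description of these loci.

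**Figure D1:**
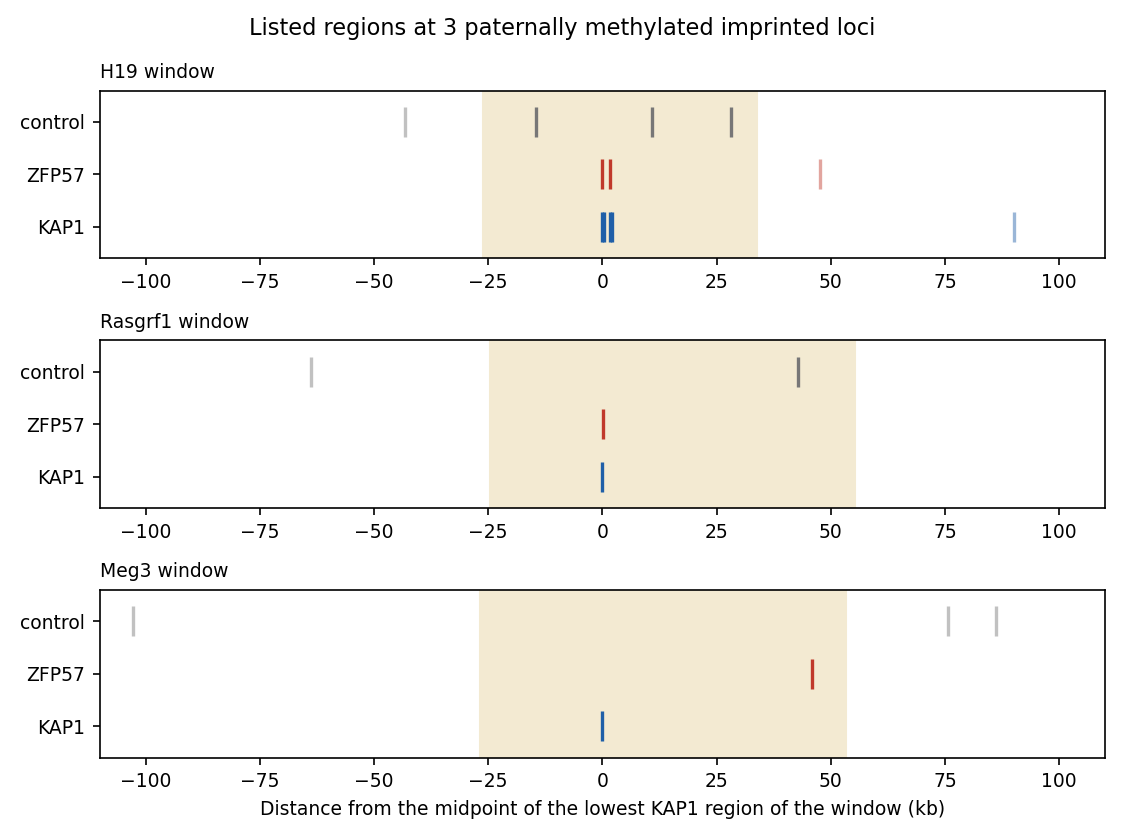
Midpoints of all listed regions around each locus, one row per list, with distance in kb from the lowest KAP1 region of the window on the x axis; the shaded band is the window, and paler marks lie outside it. ZFP57 and KAP1 marks coincide at H19 and Rasgrf1, whereas at Meg3 they stand 46.0 kb apart and no control mark falls in the window.

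H19 was the locus with the most regions in each list. Both ZFP57 regions and all 4 KAP1 regions lay within 2348 bp on chromosome 7, from 149766107 to 149768454. In map order, the first ZFP57 region (149766107 to 149766256) was matched almost base for base by the first KAP1 region (149766109 to 149766258), with midpoints 2 bp apart and 148 of 150 bp shared. A KAP1 region without a ZFP57 partner followed at 149766460 to 149766609, 203 bases beyond the end of that ZFP57 region. The second overlapping site lay 1627 bp from the first, measured between ZFP57 midpoints. It consisted of a KAP1 region at 149767694 to 149767843 and a ZFP57 region at 149767734 to 149767883, with midpoints 40 bp apart and 110 bp shared. The last KAP1 region, at 149768305 to 149768454, again had no ZFP57 partner and began 421 bases past the second ZFP57 region. KAP1 was therefore listed at every ZFP57 site of the H19 window and at 2 positions where ZFP57 was not listed. The regions of both lists together covered 642 bp of the span. Outside the window, the next ZFP57 region (149813732 to 149813881) started 13.7 kb past the upper edge. It overlapped no KAP1 region, since the first KAP1 region above it started at 149856175.

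Midpoints 2 bp apart were at the close end for such pairs: 5.10% of the 2158 ZFP57 regions that overlapped KAP1 and not the control were as close or closer, and for the pair at 40 bp the share was 56.4%. The control list also had 3 regions in the H19 window, but at other positions. They started at 149751633, 149776963 and 149794227, so that the ZFP57 and KAP1 group had 14.3 kb free of control regions below it and 8.51 kb above it. The 2 ZFP57 midpoints lay 10.9 and 9.23 kb from the nearest control midpoint, farther than about 80% of the ZFP57 list (80.7% and 79.5% of the list were nearer). For the 4 KAP1 regions this distance ran from 8.66 to 10.9 kb, and between 81.5% and 83.1% of the KAP1 list was nearer.

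**Figure D2:**
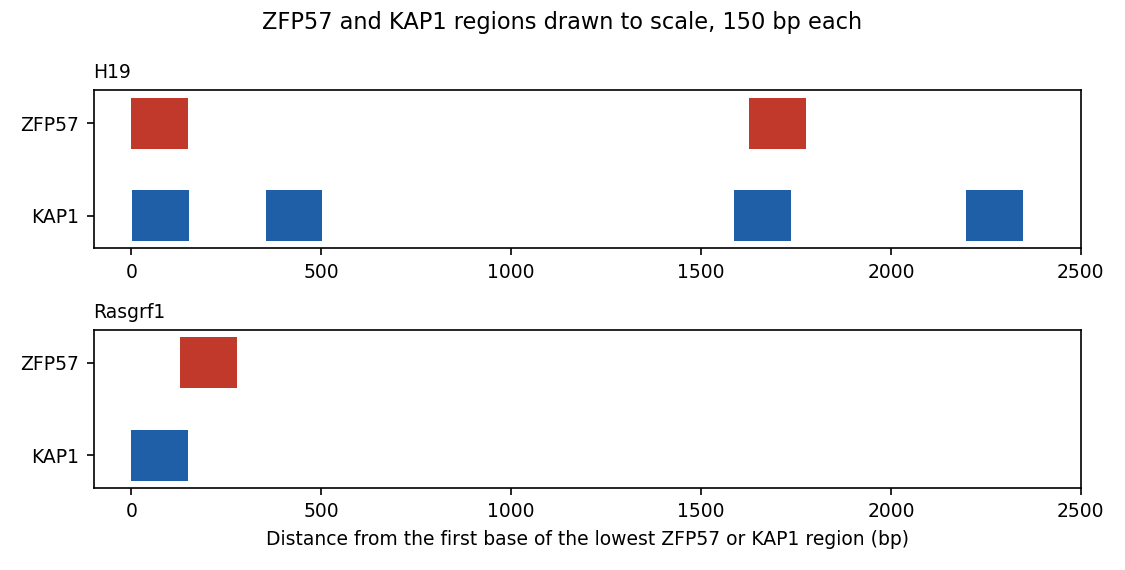
ZFP57 and KAP1 regions of the H19 and Rasgrf1 windows drawn to scale as 150 bp bars, with distance in bp from the first base of the lowest region on the x axis. At H19 the ZFP57 bars stand over the first and the third KAP1 bar; at Rasgrf1 the bars share 22 bp.

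To see how common the H19 arrangement was, ZFP57 and KAP1 regions of the nuclear chromosomes were joined into groups wherever no more than 5 kb separated them. The thresholds below were chosen after the H19 values were seen. Of 14138 groups, 8404 had no control region within 5 kb. An overlapping pair was present in 311 of these (3.70%), among them H19 and Rasgrf1. Of the 311, 21 held at least 2 ZFP57 regions overlapping KAP1. Among these 21, 5 also held at least 4 KAP1 regions (0.0595% of the 8404), and H19 was one of the 5. Most of the 8404 groups held no pair and could not meet these limits. The other four lay on chromosomes 5, 6, 8 and 10. H19 met the limit by a small margin on the control side: with 10 kb in place of 5 kb it was not counted, and 4 groups were left.

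Rasgrf1 had 1 region in each list. Its KAP1 region (chromosome 9, 89774573 to 89774722) and its ZFP57 region (89774701 to 89774850) overlapped at their ends by 22 bp, with midpoints 128 bp apart, and together spanned 278 bp. This was among the loosest overlaps, since 94.1% of the 2158 ZFP57 regions overlapping KAP1 off the control had midpoints as close or closer. When 75 bp of overlap was required, the pair no longer counted and 2 of the 4 ZFP57 regions, those of H19, remained. Of the whole ZFP57 list, between 36% and 37% had a KAP1 midpoint within 75 bp, which for regions of 150 bp is the same rule. The control region of the window (89817411 to 89817560) lay 42.6 kb above the pair, and the nearest one below was 63.7 kb away. By midpoint the ZFP57 region was 42.7 kb from the nearest control region, with 92.0% of the ZFP57 list nearer, and the KAP1 region 42.8 kb, with 92.4% of the KAP1 list nearer. The 311 groups with a pair had a median distance of 22.0 kb to the nearest control region. Of them, 101 (32.5%) lay farther from one than Rasgrf1 did and 254 (81.7%) farther than H19 did. Among groups of this kind, H19 was thus on the near side.

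The Rasgrf1 ZFP57 region was also isolated from its own list. The next ZFP57 region below it started at 89140306 and the next above at 91281977, which left 2.14 Mb with no other ZFP57 region. The neighbouring KAP1 regions outside the window were 0.488 Mb apart. KAP1 was therefore listed, with 22 bp shared, at the only position in those 2.14 Mb where ZFP57 was listed. KAP1 was also listed in that stretch without ZFP57, for example at 89452422 and 89940664. How often KAP1 overlaps ZFP57 regions this isolated was not analysed.

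At Meg3 the lists did not coincide. The KAP1 region lay on chromosome 12 from 110766618 to 110766767, and the ZFP57 region from 110812590 to 110812739. Whether either of them lies in the intergenic region between Dlk1 and Meg3 was not analysed. No ZFP57 region was listed nearer to the KAP1 region than this one, whereas 85.0% of the KAP1 list had a ZFP57 region closer by. The control list was empty across the window, and a count of 0 has an upper 95% Poisson limit of 3.69 regions. The nearest control region, at 110842195 to 110842344, was 75.4 kb from the KAP1 region and 29.5 kb from the ZFP57 region. By midpoint, 95.4% of the KAP1 list and 89.2% of the ZFP57 list lay nearer to a control region. The 2 regions were also alone in their lists, since the neighbours outside the window were 0.889 Mb apart for KAP1 and 0.942 Mb apart for ZFP57. The ZFP57 region was the member closest to a window edge on the ZFP57 list, 7.41 kb inside it, and the first region outside was the same control region, 22.2 kb past the edge. Windows narrowed by 10 kb on each side held no ZFP57 region at Meg3, and windows widened by 50 kb held 2 control regions there. The KAP1 region lay 26.6 kb inside the lower edge.

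**Figure D3:**
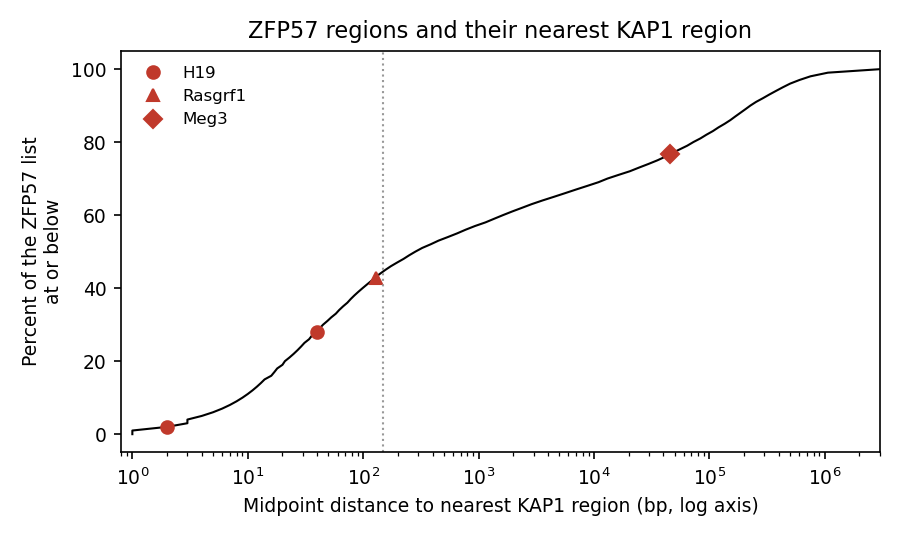
Cumulative share of the ZFP57 list (y axis, percent) by midpoint distance to the nearest KAP1 region (x axis, bp, log scale; distances of 0 are drawn at 1), with the 4 ZFP57 regions of the loci as symbols and the dotted line at 150 bp, below which regions overlap. The H19 and Rasgrf1 regions lie left of the line at 2, 40 and 128 bp, and the Meg3 region lies far to the right at 46.0 kb.

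**Figure D4:**
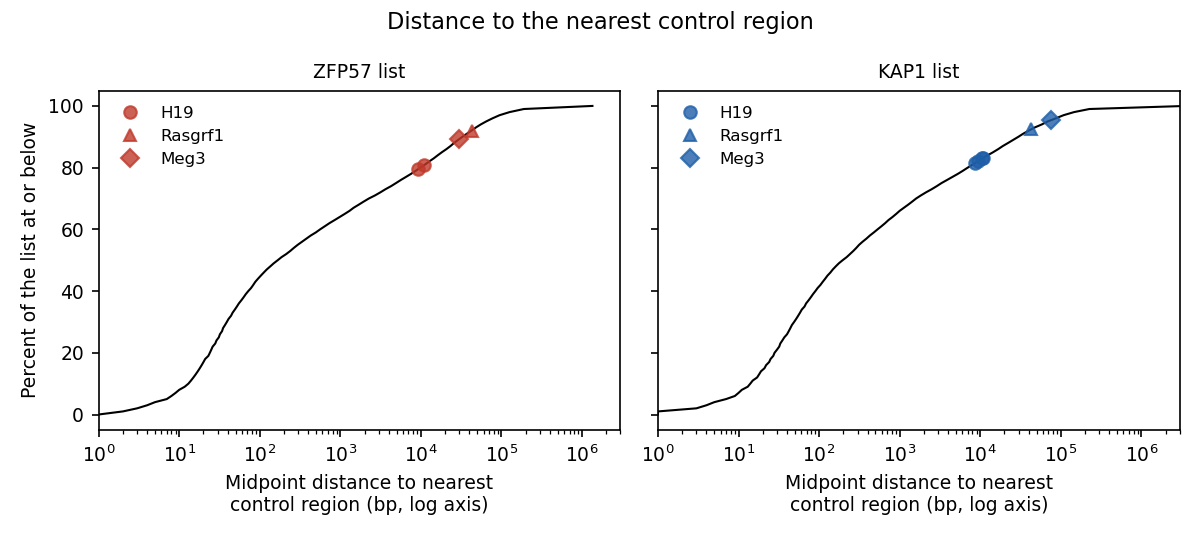
Cumulative share of the ZFP57 list (left) and of the KAP1 list (right) by midpoint distance to the nearest control region (x axis, bp, log scale; distances of 0 are drawn at 1), with the regions of the 3 loci as symbols. All 10 symbols lie in the upper part of the curves, from 79.5% (an H19 ZFP57 region) to 95.4% (the Meg3 KAP1 region).

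A window of this width that holds a region is common for the control list and less so for the others. Of all 60 kb tiles of the genome, the width of the H19 window, 43.7% held a control region, 17.9% a ZFP57 region and 13.4% a KAP1 region. Of all 80 kb tiles, the width used for Rasgrf1 and Meg3, the shares were 50.9%, 22.4% and 16.8%. An overlapping ZFP57 and KAP1 pair, as found at H19 and Rasgrf1, was present in 4.23% of 60 kb tiles and 5.24% of 80 kb tiles, and a pair off any control region in 2.20% and 2.70%. A pair in a tile with no control region at all was found in 0.330% and 0.322%, but neither H19 (3 control regions) nor Rasgrf1 (1 control region) met this stricter description. At least 2 ZFP57 and 4 KAP1 regions, the numbers in the H19 window, were present in 1.74% of 60 kb tiles, whatever their control regions. The Meg3 pattern, with a ZFP57 and a KAP1 region that did not overlap and no control region, was present in 0.620% of 80 kb tiles.

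Local density differed between the loci. In the 1 Mb on each side of the H19 window, KAP1 regions had a density of 7.0 per Mb (95% Poisson interval 3.83 to 11.7), which would put 0.420 regions in a window of that width, where 4 were listed (1.09 to 10.2). For ZFP57 the flanks held 10.5 per Mb, equal to 0.630 regions per window, against 2 listed (0.242 to 7.22). The control flanks held 20.0 per Mb, equal to 1.20, against 3 listed (0.619 to 8.77). Intervals of window and flank densities lay apart for KAP1 alone at H19, with 18.2 to 171 per Mb in the window, and flanks of 5 Mb gave a lower KAP1 density of 3.64 per Mb. The intervals cover counting error only and treat regions as independent, although listed regions lie in clusters.

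Around Rasgrf1 the flanks were denser than the window, at 36.0 per Mb for ZFP57, 29.5 for KAP1 and 51.0 for the control, but almost entirely on 1 side. Below the window the nearest 1 Mb held 72 ZFP57, 56 KAP1 and 95 control regions, and above it 0, 3 and 7. The direction turned in flanks of 200 kb, which held 0 ZFP57, 5.0 KAP1 and 5.0 control regions per Mb, against 12.5 per Mb (1 region) in the window for each list. These flank values rest on 0 ZFP57, 2 KAP1 and 2 control regions in 0.4 Mb, and no interval was computed for them. Meg3 lay in a sparse part of the KAP1 list, with 3 regions in both flanks together (1.5 per Mb, interval 0.309 to 4.38), and in a sparse part of the ZFP57 list (4.50 per Mb, 2.06 to 8.54), while the control list held 21.5 per Mb there. Flanks of 5 Mb gave 6.50 per Mb for KAP1 and 11.7 for ZFP57 at Meg3, and flanks of 200 kb gave 0 for each. On chromosome 12 as a whole the densities were 9.19, 8.76 and 18.5 per Mb. With flanks of 1 Mb, window and flank intervals overlapped for every list at both Rasgrf1 and Meg3.

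**Figure D5:**
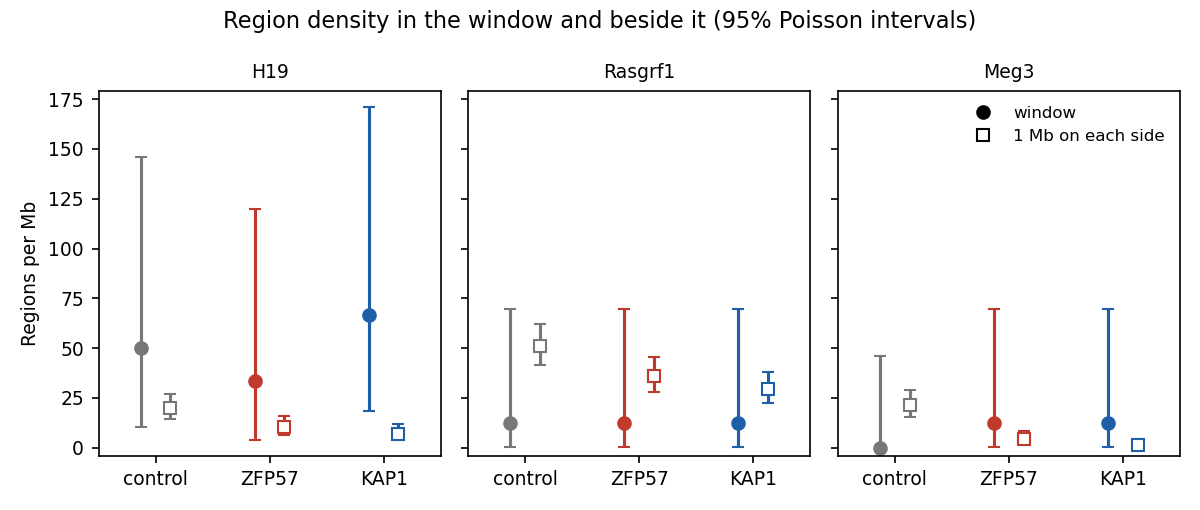
Regions per Mb (y axis) for each list at the 3 loci, with filled circles for the window, open squares for the 1 Mb on each side, and bars for exact 95% Poisson intervals, which cover counting error only. The KAP1 interval of the H19 window (18.2 to 171) lies above that of its flanks (3.83 to 11.7); all other window intervals overlap those of their flanks.

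Which base of a control region, gene, exon or intron each listed region falls on was not analysed here, because an annotation and a genome of build mm9 were not used. For orientation, the RefSeq gene table of build GRCm38 gives the order H19, Igf2, Ins2 on chromosome 7 and Dlk1, Meg3, Rtl1, Rian, Mirg on chromosome 12, with further noncoding genes between some of them. The hexamer TGCCGC, known as the core of the ZFP57 binding motif, was counted on both strands in RefSeq promoters (250 bases before to 50 after a start), which matched 6 of the 9 genes named here (Rasgrf1 included); H19, Ins2 and Rtl1 were not matched and were not searched. It occurred in 11.6% of all 32851 promoters. Of the 2 locus genes searched, Rasgrf1 (1 promoter) had no match and Meg3 had 1 match, in 1 of its 2 promoters. Igf2, whose expression the H19 region controls, had a match in 1 of 4, and Dlk1, Rian and Mirg had none. The match at Meg3 is shown because it is the only one in the promoters searched for Rasgrf1 and Meg3. It begins 190 bases before the start, on the minus strand, so the capitals mark the reverse complement GCGGCA, in the 60 bases chr12:109540779-109540838 of build GRCm38.p6, plus strand.
Meg3 promoter: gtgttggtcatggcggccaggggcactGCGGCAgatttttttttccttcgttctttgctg
These positions belong to GRCm38 and cannot be compared with the mm9 positions of the listed regions, so whether the Meg3 KAP1 or ZFP57 region covers this promoter was not tested. A match is a description of these letters and not a binding site.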

How the data were processed

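The authors deposited a list of regions per library, whose values are positions (chromosome, start, end) without a score, and each region is 150 bp wide. Per the submitters' processing notes, Bowtie and build mm9 were used; the aligner's version, the peak caller, its cutoff and any use of a control are likewise not given in the sources used here. Starts are printed 1-based. The windows, lists and descriptions were chosen with earlier results of these data known.

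A region belonged to a locus when its start lay in the window, and every region of every list there is reported. Overlap was counted from 1 bp. Overlap counts between lists were identical to those of bedtools 2.31.1, and the overlap code was tested on simulated data. Tiles of 60 and 80 kb ran from the lowest to the highest start on each nuclear chromosome, with regions placed by start. Chromosome ends were taken from the listed regions. Intervals are exact 95% Poisson intervals. "Bases between" counts bases from edge to edge. Because the files hold positions only, no count or peak-height test was made. Python 3.11.15, numpy 2.4.6, scipy 1.17.1, pandas 2.3.3 and matplotlib 3.10.9 were used. Alternatives changed window width, overlap, merging, flank width, tile offset and distance to the control.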

Additional observations from a re-analysis of the deposited data

How the results depend on the processing

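Leaving out a replicate was not possible, since a group is 1 library. No paired analysis was possible because the groups share no replicates. Merging changed no count at the loci. Shifting the tiles moved none of the 6 shares of tiles with a region of a single list by more than its counting error. The shares with pairs were not run with shifted tiles. The overlap with the control was 0 for ZFP57 and KAP1 from 1 bp, from 75 bp and with midpoints within 500 bp. Between 40% and 41% of the whole ZFP57 list and between 37% and 38% of the KAP1 list met the 75 bp rule. With 500 bp, both list shares lay between 59% and 60%. Widening the windows by 50 kb on each side gave 2 control regions at Rasgrf1 and 2 at Meg3, in place of 1 and 0. At H19 it gave 4 control and 3 ZFP57 regions, in place of 3 and 2. Narrowing the windows by 10 kb left 0 ZFP57 regions at Meg3 and 2 control regions at H19. Flank densities depended on the flank. With 200 kb on each side they were, per Mb, 7.5 (control) and 2.5 (ZFP57) at H19, 5.0 (control), 0 (ZFP57) and 5.0 (KAP1) at Rasgrf1, and 12.5 (control), 0 (ZFP57) and 0 (KAP1) at Meg3. With 5 Mb they were 3.64 (KAP1) at H19, 21.2, 14.8 and 12.1 (control, ZFP57, KAP1) at Rasgrf1, and 31.6, 11.7 and 6.50 at Meg3; the cause was not tested. A pair off any control region, whatever else the tile held, was present in 2.20% of 60 kb tiles and 2.70% of 80 kb tiles, against 0.330% and 0.322% with no control region in the tile, a rule that leaves fewer tiles by construction. Distances of 2, 8 and 10 kb to the control, chosen after seeing the data, gave 363, 263 and 241 groups with a pair; Rasgrf1 was among them each time. Unknown depth and threshold limit what an empty list at a locus can show.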
